A study of Equus caballus with 20 samples.

Results

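The miR-30 family is represented here by 4 microRNAs, eca-miR-30b, eca-miR-30c, eca-miR-30d and eca-miR-30e (the prefix marks the horse and is left off from here on), taken by name from a table of 686 horse miRNA names. Small RNA was sequenced from the extracellular vesicles (membrane particles that cells shed) of mare follicular fluid, and the question of the study is how vesicle miRNAs change around the selection of the dominant follicle. Fluid came from mares of 8 to 14 years (19 in all) with a normal reproductive tract, in which all follicles of at least 6 mm had been ablated on days 10 to 11 of the cycle so that a new wave began. Each of 5 stages held 4 libraries: predeviation (follicles of 18 to 20 mm), deviation (22 to 25 mm), postdeviation (26 to 29 mm), preovulatory (30 to 35 mm) and impending ovulation, for which the labels give signs of imminent ovulation and no diameter. No group was untreated by ablation, and libraries are not tied to mares.

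Members of the miR-30 family share a seed, the stretch at the 5′ end with which a miRNA recognises its targets, so that their predicted targets overlap widely. They are expressed in many epithelial and mesenchymal tissues, including the ovary, and are known for repressing SNAI1, a driver of epithelial-mesenchymal transition. In human, miR-30b and miR-30d lie next to each other in 1 cluster, while miR-30e and a copy of miR-30c lie in an intron of NFYC. Outside the seed, miR-30d and miR-30e are nearly identical, and miR-30b and miR-30c resemble each other more than they resemble the other pair. The sources used here do not say how reads that match more than 1 member were assigned, so levels of near-identical members are uncertain to that extent. MiR-384, which shares the seed in other mammals, was listed at 0 in all 20 libraries. None of the 686 names held miR-30a, and how any reads of it were assigned is not known.

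Values are scaled reads: whole reads times 1 factor per library, which was worth between 7.04 and 36.5 per read. Libraries held between 27131 and 110130 reads, the shallowest being preovulatory 3 with 27131 and impending ovulation 2 with 29862. Whether libraries of a stage came from separate mares is not labelled, and the p-values therefore speak only for the spread among these libraries, which may be partly technical. Predeviation 4 stood apart from the other libraries, with the highest sum of values (1778185 against 774632 in the lowest library) and 46.6% of it in miR-148a. Sums also differed by stage. Their means were 1271063 at predeviation, 1074461 at deviation, 929012 at postdeviation, 895955 at the preovulatory stage and 912708 at impending ovulation. Every predeviation sum was at least 1078319, and every postdeviation, preovulatory and impending ovulation sum was at most 1015849. Stage means, their order and trends on this scale carry that difference. All 4 members were read in every library and passed the filter on low values, which kept 264 miRNAs. Vesicles mix the output of many cells, so a lower level cannot be told apart into fewer releasing cells and less RNA per cell.

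The family was a minor part of the vesicle cargo, and miR-30d made up most of it. The members together held 1.03% ± 0.327 (SD, n = 20) of the summed values, from 0.391% in predeviation 4 to 1.60% in preovulatory 1. MiR-30d, known in human and mouse as a miRNA that the endometrium secretes and the embryo takes up, averaged 7413 ± 2469 scaled reads and ranked 26 by mean level among all names. MiR-30e followed with 1284 ± 690 (rank 51), then miR-30c with 1147 ± 352 (rank 57) and miR-30b with 322 ± 143 (rank 97). Mature miRNAs are of nearly equal length, so these levels can be set side by side, although ligation of adapters to miRNAs of different sequence is uneven. MiR-30d held 72.1% ± 4.91 of the family's values, between 61.5% and 80.4% in single libraries. Its mean share by stage stayed between 71.1% and 74.6%. MiR-30c held 12.4% ± 5.47, miR-30e 12.0% ± 4.29 and miR-30b 3.53% ± 2.34.

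**Figure D1:**
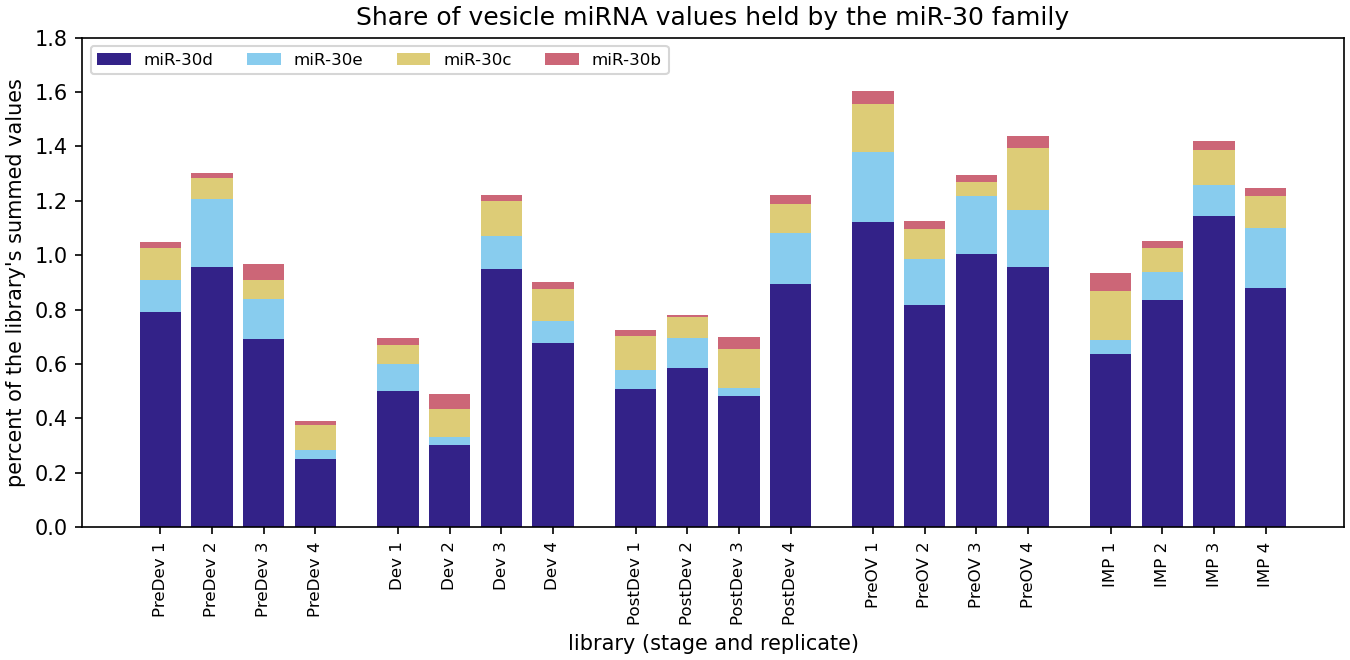
Stacked bars give, for each of the 20 libraries, the percent of its summed values held by each member (vertical axis), with libraries grouped by stage on the horizontal axis. MiR-30d is the tallest segment in every library; predeviation 4 has the lowest family share (0.391%) and preovulatory 1 the highest (1.60%).

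No member of the family passed the adjusted threshold in any comparison of follicle stages. Stages were compared with limma on log2(value + 1), fitted to all 264 tested miRNAs, with p-values adjusted over all of them and a call at an adjusted p under 0.05. In the F test over the 5 stages 0 of the 4 members were called, where 4.92% of all tested miRNAs were. In the trend over the stage order 0 members were called, against 5.68% of all. Between pairs of stages 0 members were called in each of the 10 pairs. The share of all tested miRNAs called was 6.06% for postdeviation minus predeviation, 5.68% for impending ovulation minus predeviation and 4.92% for preovulatory minus predeviation. It was 0.379% for deviation minus predeviation and for impending ovulation minus deviation. In the remaining 5 pairs it was 0%. With so few miRNAs called, 0 of 4 members is near the background in every comparison.

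Over the 12 comparisons the members had 48 tests, of which 2 had an unadjusted limma p under 0.05, both for miR-30e: preovulatory minus postdeviation and preovulatory minus deviation. The lowest adjusted p of a member was 0.393. EdgeR and DESeq2, run on recovered reads, also called 0 members in every comparison. In the pairs where limma called 0 of all tested miRNAs, the number with an unadjusted p under 0.05 was 16 for postdeviation minus deviation, 28 for preovulatory minus postdeviation, 24 for impending ovulation minus preovulatory, 30 for preovulatory minus deviation and 24 for impending ovulation minus postdeviation. In that order edgeR called 0, 0, 0, 0 and 3 miRNAs there and DESeq2 called 3, 0, 3, 16 and 4.

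MiR-30e, which in human is transcribed with NFYC, varied most between stages. At predeviation it was at 1283, 2683, 1677 and 533 scaled reads in libraries 1 to 4, a mean of 1544 ± 895 (SD, n = 4). At deviation it was at 920, 337, 1435 and 877, a mean of 892 ± 448. The lowest predeviation library, number 4, lay inside the range of deviation, so these stages overlapped. At postdeviation the values were 561, 1026, 313 and 1864, a mean of 941 ± 682. At the preovulatory stage they were 2214, 1631, 2117 and 1640, a mean of 1901 ± 309. All 4 preovulatory libraries lay above all 4 deviation libraries, while postdeviation 4 lay inside the preovulatory range. At impending ovulation the values were 447, 883, 1168 and 2060, a mean of 1140 ± 681, and only library 4 lay in the preovulatory range.

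The order of the miR-30e means was preovulatory, predeviation, impending ovulation, postdeviation and deviation, with the highest 2.13 times the lowest. Preovulatory minus deviation had a log2 fold change of 1.25 (95% interval 0.06 to 2.44, limma adjusted p = 0.393), and the median over all 264 miRNAs was 0.13. Groups without overlap in this pair were found for 6.06% of all tested miRNAs. Preovulatory minus postdeviation had a log2 fold change of 1.30 (0.12 to 2.49, limma adjusted p = 0.405) beside a median of 0.25 over all miRNAs. The fold change of impending ovulation minus preovulatory was -0.93 (log2, -2.12 to 0.26, limma adjusted p = 0.524), and -0.55 without impending ovulation 1. None of these passed, and no neighbours in the order of means passed the test.

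MiR-30d followed a similar course at a higher level. At predeviation it was at 8609, 10310, 7862 and 4474 scaled reads, a mean of 7814 ± 2451 (SD, n = 4). At deviation it was at 4733, 3163, 11145 and 7632, a mean of 6668 ± 3512. Deviation held both the lowest library of the series, number 2, and one of the highest, number 3. At postdeviation the values were 4130, 5575, 4628 and 8835, a mean of 5792 ± 2115. At the preovulatory stage they were 9673, 7819, 9929 and 7404, a mean of 8706 ± 1280, and at impending ovulation 5398, 7096, 11604 and 8241, a mean of 8085 ± 2621. The ranges of all 10 pairs of stages overlapped. The order of means was preovulatory, impending ovulation, predeviation, deviation and postdeviation. With libraries brought to equal totals the means were 9907, 8879, 6833, 6173 and 6274 in that order. There deviation lay below postdeviation. Preovulatory minus postdeviation had a log2 fold change of 0.64 (95% interval -0.13 to 1.41, limma adjusted p = 0.481), and preovulatory minus deviation of 0.53 (-0.24 to 1.30, adjusted p = 0.537). The latter was 0.23 without deviation 2 and 0.83 without deviation 3.

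Predeviation 4 held the least miR-30d and the least miR-30e of its stage. Without it the predeviation mean of miR-30d was 8927 ± 1255 (n = 3), above the preovulatory mean, so that its place in the order rested on that library. The mean of miR-30e was 1881 ± 722 without predeviation 4 and kept its place below the preovulatory mean. These means are those before libraries were brought to equal totals. The part of the high miR-148a content of that library in these values was not tested.

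**Figure D2:**
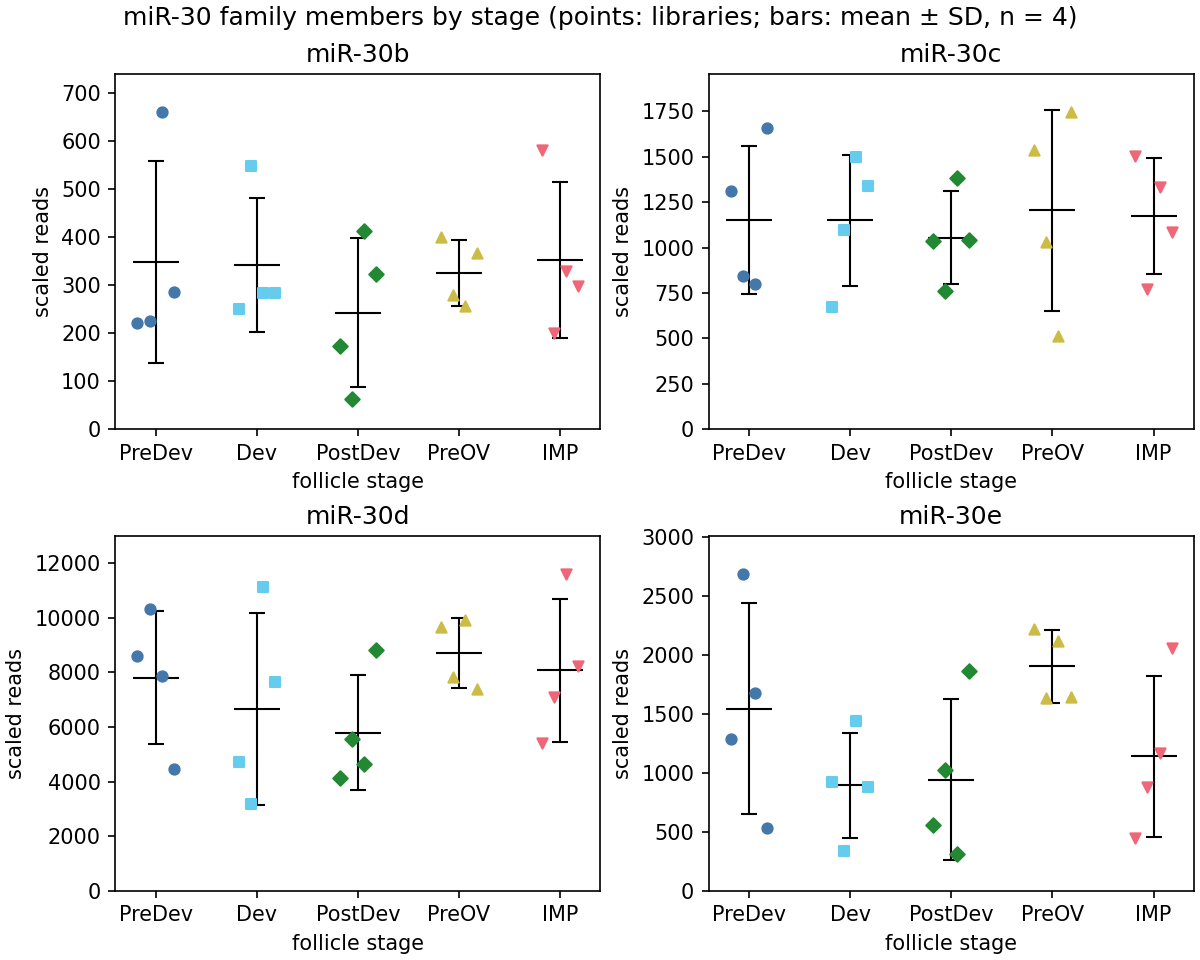
Each panel plots 1 member, with scaled reads on a vertical axis that starts at 0 and the 5 stages on the horizontal axis; points are libraries and bars give the mean ± SD of 4. The preovulatory libraries of miR-30e lie together between 1631 and 2214, above all deviation libraries, whereas stages of miR-30c overlap throughout.

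MiR-30c, a repressor of MTTP in lipoprotein assembly in mouse liver, was the most even member over the stages. Its means were 1152 ± 409 scaled reads at predeviation, 1151 ± 360 at deviation, 1055 ± 255 at postdeviation, 1205 ± 552 at the preovulatory stage and 1173 ± 320 at impending ovulation (SD, n = 4 each). The highest mean was 1.14 times the lowest, while single libraries ranged from 511 in preovulatory 3 to 1745 in preovulatory 4. The value of preovulatory 3, the shallowest library, rested on 14 reads. Fitted log2 fold changes between pairs of stages lay from -0.09 to 0.14, with limma adjusted p of 0.923 or more. The 95% interval, unadjusted for the number of tests, reached 0.86 to either side of each of these. Passing the adjusted threshold asks for more, so that a change beyond that distance could also go uncalled.

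MiR-30b, which with miR-30c is known to repress the Notch ligand DLL4 in endothelium, was the scarcest member. Its means were 348 ± 210 scaled reads at predeviation, 342 ± 139 at deviation, 243 ± 155 at postdeviation, 325 ± 69.0 at the preovulatory stage and 352 ± 163 at impending ovulation (SD, n = 4 each). Between 6 and 52 reads stood behind a value. The lowest, 63.5 in postdeviation 2, came from 6 reads, with a counting interval (95%, exact Poisson) of 23.3 to 138. The highest, 660 in predeviation 3, came from 24 reads, with an interval of 423 to 982. Reads carry no molecular identifiers, so such intervals cover counting error only. The log2 fold change furthest from 0 was 0.74 for impending ovulation minus postdeviation (-0.48 to 1.95, limma adjusted p = 0.697). It was 0.20 without postdeviation 2 and 0.46 without impending ovulation 1, and at most 1.09 with any 1 library left out.

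Precision differed between members. Between 2 stages the 95% interval reached to either side of the log2 fold change by 0.77 for miR-30d, 0.86 for miR-30c, 1.19 for miR-30e and 1.22 for miR-30b, against a median of 2.69 over all tested miRNAs. As folds these are 1.70, 1.82, 2.28 and 2.32. They are not limits of detection after adjustment. The miR-30e log2 fold changes of 1.25 and 1.30 lay beyond 1.19 and were not called. Counting alone gave a coefficient of variation of 4.90% for miR-30d, 13.0% for miR-30c, 13.4% for miR-30e and 24.7% for miR-30b. The observed coefficient of variation within stages was 33.8%, 34.2%, 49.6% and 47.8% in the same order.

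The slope of the trend, in log2 units per stage step, was 0.06 (95% interval -0.11 to 0.24) for miR-30d and 0.04 (-0.22 to 0.31) for miR-30e. It was 0.01 (-0.18 to 0.20) for miR-30c and 0.01 (-0.26 to 0.28) for miR-30b. These slopes are on the deposited scale, whose library sums differed by stage. With libraries brought to equal totals 1 member had an unadjusted limma p under 0.05 in the trend, beside 52 of all 264 miRNAs, and 0 members were called.

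**Figure D3:**
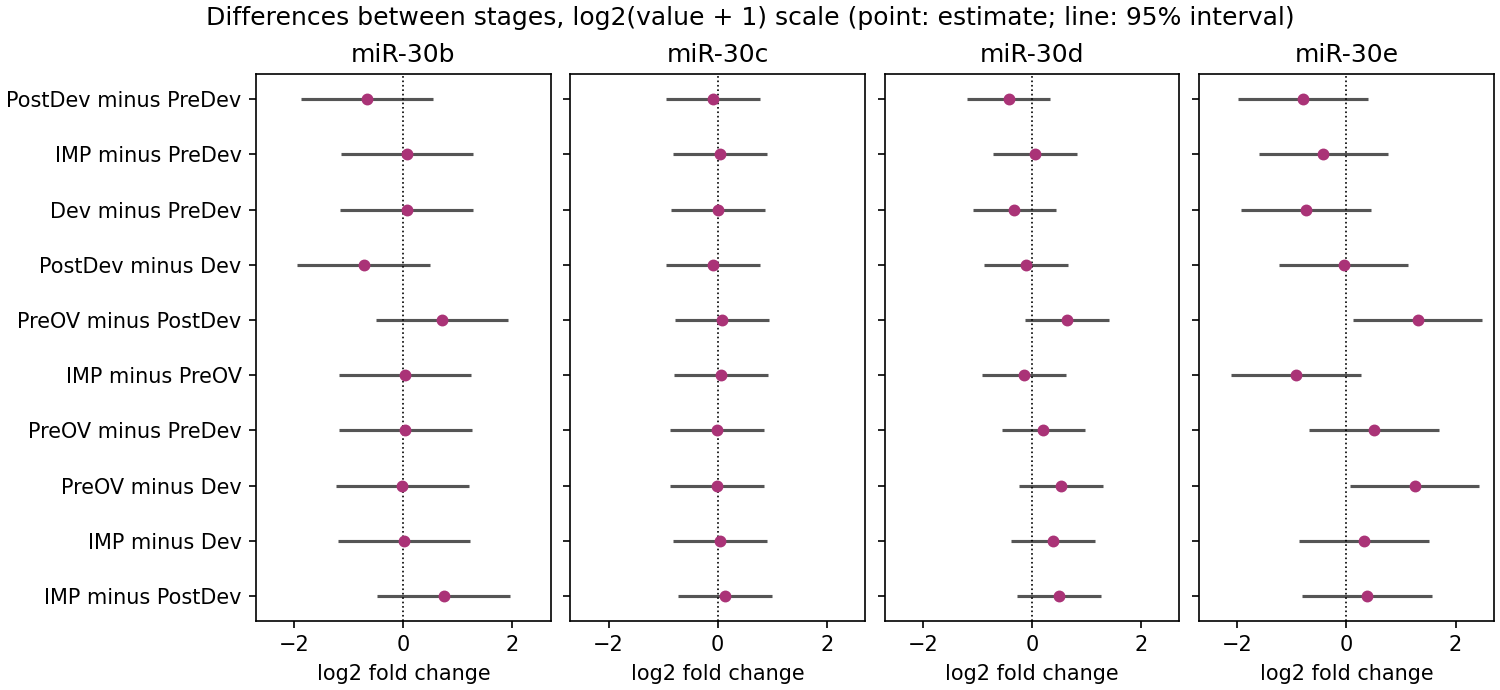
Points give the fitted log2 fold change of each member (panels) for the 10 pairs of stages (vertical axis) and lines the 95% interval, unadjusted for the number of pairs. The intervals of miR-30e for preovulatory minus deviation (0.06 to 2.44) and minus postdeviation (0.12 to 2.49) lie above 0, and every other interval holds 0.

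Across libraries the correlation between members was highest for miR-30d with miR-30e. MiR-30d and miR-30e rose and fell together over the 20 libraries, with Pearson r = 0.84 (permutation p = 1e-05, the smallest that 100000 permutations can give) and Spearman rho = 0.78 (permutation p = 1e-04), on log2(value + 1). Adjusted over the 6 pairs of members these are 6e-05 and 6e-04. Two-sided permutations took libraries as independent, which the labels do not establish. How reads that match both of these near-identical members were assigned is not known, and their part in the correlation was not tested. Without deviation 2 and postdeviation 1, the libraries farthest from the median of miR-30d, r was 0.78. With stage means removed it was 0.82, within single stages of 4 libraries it ranged from 0.67 to 0.97, and with libraries brought to equal totals it was 0.86. For scale, the median r over all 6441 pairs of the 114 miRNAs above 0 in every library was 0.01, and 0.295% of those pairs reached the r of miR-30d with miR-30e.

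MiR-30b, the human cluster neighbour of miR-30d, gave no correlation of that size with it. The correlation of miR-30b with miR-30d was r = -0.02 (rho = -0.03, permutation p = 0.942 and 0.897), and that of miR-30c with miR-30e, which share an intron in human, was r = -0.26 (rho = -0.23, permutation p = 0.26 and 0.327). Without the 2 farthest libraries these were -0.24 and -0.20. MiR-30b with miR-30c gave r = 0.37 (permutation p = 0.111, adjusted 0.333) and rho = 0.53 (permutation p = 0.0166, adjusted 0.0498), and r = 0.47 without the 2 farthest libraries. With equal totals rho of that pair was 0.35. The remaining pairs were miR-30b with miR-30e (r = -0.14, rho = -0.08, permutation p = 0.559 and 0.727) and miR-30c with miR-30d (r = -0.02, rho = -0.04, permutation p = 0.917 and 0.855), with -0.35 and 0.01 without the 2 farthest. The counting error of miR-30b, the largest in the family, adds scatter to each of its correlations.

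**Figure D4:**
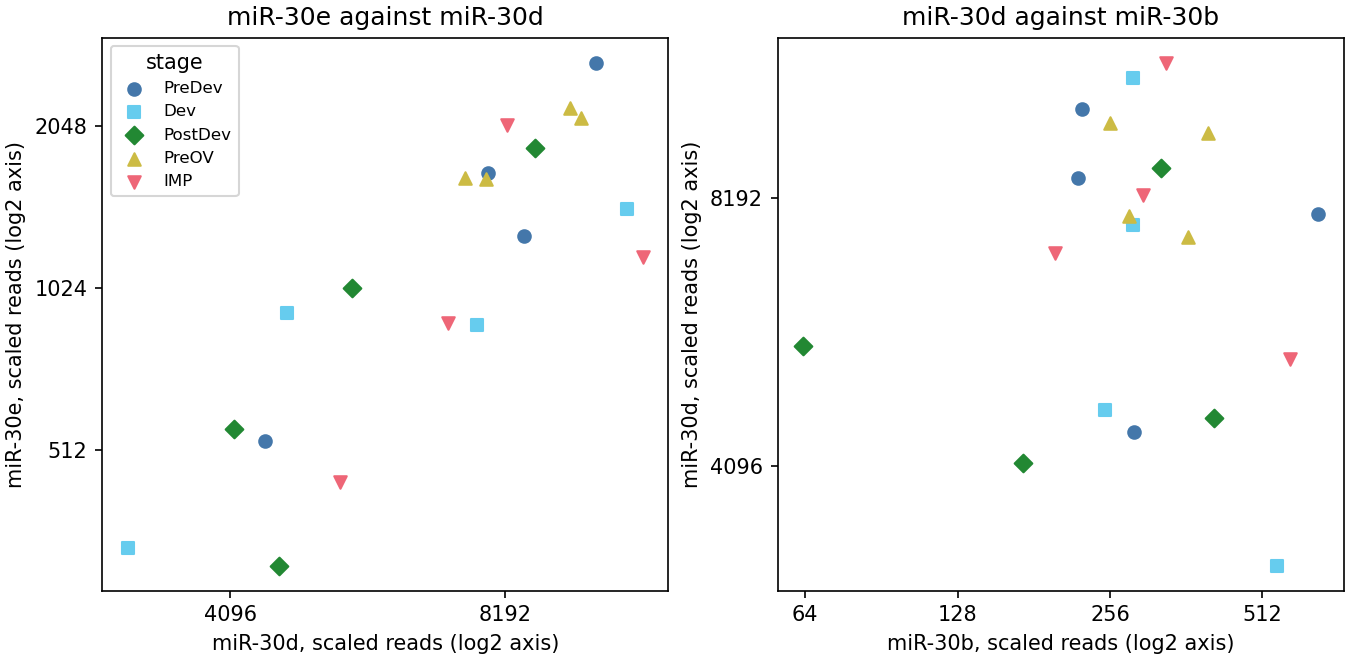
Each point is a library, coloured by stage, with scaled reads of 2 members on log2 axes. On the left miR-30e rises with miR-30d (r = 0.84); on the right miR-30d is plotted against miR-30b (r = -0.02).

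The ratio of miR-30d to miR-30e was nonetheless not fixed. In log2 units it was 2.75, 1.94, 2.23 and 3.07 in predeviation libraries 1 to 4, 2.36, 3.23, 2.96 and 3.12 at deviation, and 2.88, 2.44, 3.89 and 2.25 at postdeviation. At the preovulatory stage it was 2.13, 2.26, 2.23 and 2.17, with an SD of 0.06 against 0.39 to 0.73 in the other stages. At impending ovulation it was 3.59, 3.01, 3.31 and 2.00. All preovulatory libraries lay below all deviation libraries, while the other stages overlapped with the preovulatory range or reached below it. The gap was narrow, from 2.26 to 2.36, in the pair of stages where miR-30e itself did not overlap. The ratio was not tested, and ratios of other miRNAs were not set beside it.

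Outside the family, the miRNAs most like miR-30d over the 20 libraries were let-7f (r = 0.88, rho = 0.89), let-7g (0.82 and 0.81) and miR-196b of the HOX clusters (0.74 and 0.70). Those most like miR-30e were let-7g (r = 0.86, rho = 0.84), let-7f (0.85 and 0.81) and miR-101, a repressor of EZH2 (0.84 and 0.79). Let-7f and let-7g, of the family that represses LIN28 and HMGA2, are thus among the 3 most alike of both. The r of miR-30d with let-7f (0.875) was above that of miR-30d with miR-30e (0.837). So were those of miR-30e with let-7g (0.862), let-7f (0.851) and miR-101 (0.844). MiR-30b was most like miR-1379 (r = 0.62, rho = 0.48), the broadly expressed miR-191a (0.62 and 0.51) and miR-424 (0.60 and 0.53). MiR-30c was most like miR-9021 (r = 0.69, rho = 0.52), miR-369-3p of the imprinted DLK1-DIO3 cluster (0.67 and 0.57) and miR-769a-5p (0.66 and 0.63). Several of these were scarce: miR-424 had 20 reads in all, miR-196b 43, miR-9021 74, miR-769a-5p 85 and miR-1379 88, so their likeness rests on few reads. Let-7f and let-7g were abundant, with a mean of 8659 scaled reads for let-7f and 15099 for let-7g. These correlations are descriptions of 20 points that share, between the 2 miRNAs of a pair, the same library and its factor. They were picked as the highest among all tested miRNAs outside the family, and none is given a p.

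**Figure D5:**
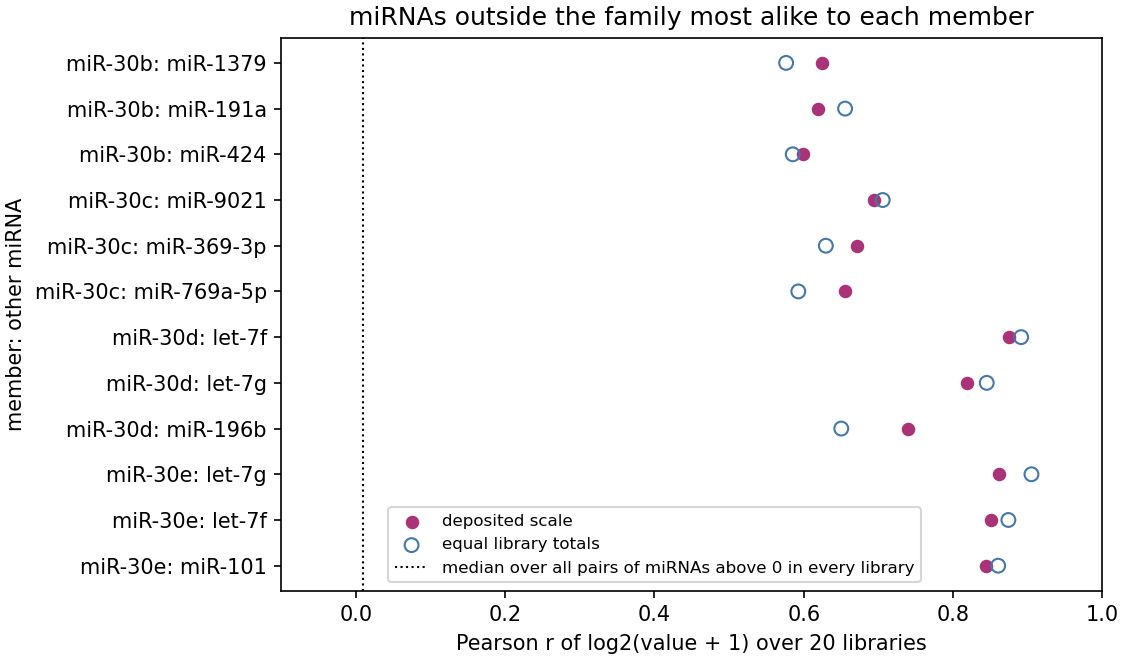
For each member, the 3 miRNAs outside the family with the highest Pearson r over 20 libraries are shown (vertical axis), as filled points on the deposited scale and open points with equal library totals. Those of miR-30d and miR-30e reach 0.74 to 0.88 on the deposited scale and those of miR-30b and miR-30c 0.60 to 0.69; the dotted line marks the median over all pairs (0.01).

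Other seed families were set beside the miR-30 family for preovulatory minus deviation, the pair in which miR-30e did not overlap. That pair was thus chosen for the values of miR-30e. The median log2 fold change of the 4 miR-30 members was 0.26, with 2 of 4 above 0, against 0.13 over all tested miRNAs. It was 0.71 for the 7 measured let-7 members (6 of 7 above 0) and 1.39 for 7 members of the families of miR-15 and miR-16, miR-103 and miR-107 (5 of 7). MiR-26a, the only measured member of its family, had 0.74, and the 3 miR-29 members had a median of 0.68 (2 of 3). For preovulatory minus postdeviation the medians were 0.67 for miR-30, 0.69 for let-7 and 0.25 over all tested miRNAs. They were 1.66 for the list of miR-15, miR-16, miR-103 and miR-107, 0.88 for miR-26a and 2.09 for miR-29. The miR-29 median is not a rise of that family's level, whose summed mean was 952 scaled reads at postdeviation and 867 at the preovulatory stage. MiR-29a was at 928 ± 132 and 809 ± 315 in these stages, and the scarce miR-29c at 8.24 ± 16.5 and 18.4 ± 12.4. In the 4 lists set beside miR-30, 0 members were called by limma in any of the 12 comparisons. In let-7 the smallest F test p was that of let-7a (limma adjusted p = 0.142), which was at 6435 ± 870 scaled reads at deviation and 12494 ± 2405 at impending ovulation. MiR-107a, the most abundant of its list, was at 591 ± 383 at deviation and at 2799 ± 2113 at the preovulatory stage (log2 2.12, limma adjusted p = 0.292). MiR-29a, the most abundant of its family, was at 1031 ± 382 and 809 ± 315 (log2 -0.37, limma adjusted p = 0.714), and miR-29c, with the smallest F test p (adjusted 0.631), was at 6.48 ± 7.53 and 18.4 ± 12.4.

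Epithelial miRNAs, which are linked with miR-30 in epithelial-mesenchymal transition, were set beside the family in the same pair. The median of 6 members (the miR-200 family and miR-205) for preovulatory minus deviation was -0.88, with 1 of 6 above 0, and 0 of 6 were called in that pair. For preovulatory minus postdeviation the median was -0.35. At predeviation, where the mean of miR-30e was also above that of deviation, the summed list had its highest mean (8545 scaled reads against 5162 at deviation and 3854 at the preovulatory stage). The mean of the summed list at impending ovulation was 5946. In the F test 1 of 6 was called, beside 4.92% of all tested miRNAs. That was miR-200c, at 1419 ± 901 scaled reads at predeviation, 272 ± 170 at postdeviation and 1172 ± 840 at impending ovulation (F test limma adjusted p = 0.0365). Of the same 6, 1 was called for postdeviation minus predeviation (6.06% of all) and 2 for preovulatory minus predeviation (4.92% of all). The most abundant, miR-200b, was at 3185 ± 1029 at predeviation, 1118 ± 677 at postdeviation and 2496 ± 997 at impending ovulation (F test limma adjusted p = 0.0713). Of 6 measured miRNAs of hormone response in follicles 5 passed the filter, and their median was -0.47 (1 of 5 above 0) and 0 were called in the F test. MiR-21, raised by luteinizing hormone in granulosa cells, was at 135756 ± 84582 at deviation and 95902 ± 88593 at the preovulatory stage. MiR-383, with the smallest F test p of that list (adjusted 0.283), was listed at 0 in all predeviation, deviation and impending ovulation libraries.

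Markers of other sources were read in the same pairs. All 4 red blood cell markers, 7 leukocyte markers, 3 of endothelium and platelets, 4 of liver and plasma and 2 of smooth muscle and theca were above 0 in at least 1 library; miR-223 stands in 2 of these lists. Summed red cell markers ranged from 20750 to 30394 scaled reads at deviation and from 7643 to 73092 at the preovulatory stage. Summed leukocyte markers ranged from 6861 to 8112 and from 2843 to 7958, and those of endothelium and platelets from 2489 to 4681 and from 2034 to 6952. Liver and plasma markers ranged from 71050 to 101196 and from 60165 to 94719, and smooth muscle and theca markers from 19748 to 27291 and from 9387 to 31357. Each list overlapped between deviation and the preovulatory stage, a pair in which 6.06% of all tested miRNAs did not overlap. Between postdeviation and the preovulatory stage the liver and plasma markers did not overlap, from 137861 to 145793 at postdeviation. Of all tested miRNAs, 7.20% did not overlap in that pair. The part of any of these sources in the levels of miR-30e was not tested. In the F test 2 of 4 liver and plasma markers were called, of which miR-192 had the smallest p (limma adjusted p = 0.00369). Of 7 leukocyte markers 1 was called, miR-146b-5p (limma adjusted p = 0.0438). The share over all tested miRNAs was 4.92%. In the other 3 marker lists 0 were called, with the smallest adjusted p at 0.245 for miR-486-3p, 0.140 for miR-126-5p and 0.287 for miR-145.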

How the data were processed

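From 2 ml of fluid, vesicles were collected by ultracentrifugation, per the labels' protocols, and libraries made with the TruSeq Small RNA kit. The submitters' processing notes name bcl2fastq, Bowtie2 2.2.2, DESeq2 and the horse build EquCab3.0, without roles. The sources used here do not give the miRNA annotation or the counting settings. The deposited table, labelled CPM, holds what is here treated as a signal of scaled reads: its columns do not share 1 total, and 100% of values are whole multiples (tolerance 1e-06) of the smallest in the column, so reads were recovered by division. Of 686 names 325 were above 0 in any library. A level of 10 or more in 4 or more libraries was required, which left 264 miRNAs, tested with limma 3.58.1 in R 4.3.3 on log2(value + 1), with an intensity trend, a mean per stage, all 20 libraries in 1 fit, two-sided, with Benjamini-Hochberg adjustment across all tested miRNAs within a comparison. The added 1 is small beside the worth of 1 read (7.04 to 36.5). Fold changes of scarce miRNAs on this scale therefore lean on which libraries are at 0, and can exceed those of the means. For preovulatory minus deviation miR-29c, with means of 18.4 and 6.48, had a fitted log2 fold change of 2.18, more than its means give. Counts recovered from the deposited values were also tested with edgeR 4.0.16 (quasi-likelihood, TMM) and DESeq2 1.42.0. The limma and edgeR fits, but not DESeq2, were tested on simulated data, with a spread that was not fitted to these libraries. All 10 pairs, a trend (least-squares slope over the stage order) and an F test were run.

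The members, lists, tests and alternatives were chosen with earlier results of these data known. Named miRNAs are the 4 members, miR-384, the 3 others with the highest r to each member and, of each list, the member with the smallest F test p and the most abundant. Sequences are not given, since none was at hand.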

Additional observations from a re-analysis of the deposited data

Results flagged for a closer look

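In 25 groups of 4 libraries (the 4 members and the family sum at 5 stages), 2 held a library far from the other 3, with a gap to its nearest neighbour, as a share of the group's range, above Dixon's 95% critical value, and chance alone gives about 1 in 20. Both concern miR-30b. In predeviation 3 it was at 660 scaled reads, against 221 to 286 in the other 3. In deviation 2 it was at 548, against 250 to 284. These values rest on 24 and 39 reads. Their cause was not tested.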

How the results depend on the processing

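The number of miR-30 members called stayed at 0 in all 12 comparisons under every one of the 35 alternatives run (34 for the F test and trend), and the lowest adjusted p of a member was 0.135, with array weights. The alternatives were other pseudocounts, filters and scalings, no intensity trend, array weights, edgeR, DESeq2, libraries under 40000 reads left out, only the stages compared, a replicate block and each library left out in turn. The miR-30e fold change stayed above 0, from 0.88 to 1.73 for preovulatory minus postdeviation and from 0.84 to 1.54 for preovulatory minus deviation. Impending ovulation minus postdeviation turned for miR-30c with quantile normalization (log2 -0.10) and without postdeviation 2 (with 1 library left out it ranged from -0.00596 to 0.328), and that of miR-30b ranged from 0.20 to 1.09. The summed family level at the preovulatory stage moved beyond 1 SD with equal library totals (13883 against 12138 scaled reads). Equal totals moved the median of all miRNAs for preovulatory minus deviation from 0.13 to 0.38, and quantile normalization to -0.15.

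With the replicate block 0 members were called, with the lowest adjusted p at 0.439. The block lowered the count over all miRNAs from 13 to 5 for preovulatory minus predeviation and from 1 to 0 for deviation minus predeviation. Of 40 pairs of same-numbered libraries 4 had a correlation of deviations over 0.1 (median -0.04), and 4 of 20 libraries correlated best with their own number, so the numbers were not taken as pairs.

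The background counts leaned on the setting. Over the alternatives the number of miRNAs called ranged from 2 to 45 in the F test (main 13; DESeq2 43, edgeR 27, array weights 45, no intensity trend 2), 9 to 31 in the trend (15), 7 to 21 for postdeviation minus predeviation (16), 4 to 24 for impending ovulation minus predeviation (15) and 2 to 47 for preovulatory minus predeviation (13). It ranged from 0 to 11 for deviation minus predeviation (1), 0 to 8 for impending ovulation minus deviation (1), 0 to 3 for postdeviation minus deviation (0), 0 to 7 for impending ovulation minus preovulatory (0), 0 to 19 for preovulatory minus deviation (0) and 0 to 4 for impending ovulation minus postdeviation (0). It stayed at 0 for preovulatory minus postdeviation. The correlation of miR-30d with miR-30e ranged from 0.80 to 0.88 under settings chosen after seeing the data.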
